A study of Mus musculus with 45 samples.

Results

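Interferon-stimulated genes are the genes that cells switch on after an interferon binds its receptor. A list of 43 such genes was followed in mouse nucleus accumbens (NAC), part of the ventral striatum and of the reward circuit. A gene was measured where at least 1 probeset carried its symbol alone in the annotation of the array platform, and the probeset with the highest mean stood for the gene. Of the 43 genes, 40 were measured on 64 probesets (23 genes by a single probeset and 17 by more), out of 18193 genes with a probeset of a single symbol. Isg15, Psme2 and Ifi44 had no probeset of their own: the probeset of Isg15 also named Gm9706, that of Psme2 also named Psme2b, and none was annotated to Ifi44.

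Adult male C57BL/6J mice were placed in inhalation chambers for 16 h of each of 4 days, followed by 7 days without ethanol, and the cycle was run 4 times. Mice of the CIE group (chronic intermittent ethanol) were exposed to ethanol vapor (10 to 13 mg/l) after an injection of ethanol (1.6 g/kg) and pyrazole (1 mmol/kg), and mice of the Ctrl group breathed air after saline and the same dose of pyrazole, so that pyrazole, which blocks alcohol dehydrogenase, was common to all 8 groups. Tissue was taken 0 h, 8 h, 72 h or 7 days after the last session, from 6 Ctrl and 6 CIE mice at 0 h, 5 and 5 at 8 h, 6 and 5 at 72 h, and 6 and 6 at 7 days. Each mouse had its own array. Mice are named below by their group and the number in their label. Levels are log2 expression values, in which a difference of 1 is a doubling, and each difference is CIE minus Ctrl unless stated otherwise.

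Type I interferons act through a receptor pair, the Janus kinases and a complex with STAT2 and IRF9 that binds the interferon-stimulated response element (ISRE), whereas interferon gamma acts mainly on the gamma-activated site (GAS). The induced genes include transcription factors that extend the response (Irf7, Irf1), inhibitors of viral translation and release (the Ifit genes, Bst2), sensors of viral RNA (Ifih1, Ddx58, Dhx58), GTPases that act on the membranes around intracellular pathogens (Igtp, Irgm1, Iigp1 and the Gbp genes), and chemokines such as Cxcl10. In brain they are expressed at a low level in microglia, astrocytes, endothelial cells and neurons, and are induced in these cells by interferon. The arrays measured bulk tissue, so more cells of a type and more RNA per cell cannot be told apart.

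The promoters of the genes bear the response element in letters. Of the 40 genes, 30 had a window in a RefSeq promoter table (GRCm38.p6, 250 bases before to 50 after the start). The ISRE was searched as GAAANNGAAA and the GAS as TTCNNNGAA, on both strands, with overlapping matches kept and with matches to one counted also where they overlapped the other. A gene was counted where any of its windows held a match. Of the 30 genes, 15 had an ISRE match (50.0%), against 3.99% of 27025 genes in the table, and 7 had a GAS match (23.3%), against 9.55%. A match is a string of letters and not evidence of binding. The 160 bases before the start are shown for Ifit1, Ifit3, Igtp, Irgm1, Gbp2 and Rsad2, the antiviral enzyme viperin. ISRE matches on either strand are in capitals. These genes were picked among those with a match, and of them only Igtp and Irgm1 are called with time in CIE mice below.
Ifit1, chr19:34640729-34640888, plus strand: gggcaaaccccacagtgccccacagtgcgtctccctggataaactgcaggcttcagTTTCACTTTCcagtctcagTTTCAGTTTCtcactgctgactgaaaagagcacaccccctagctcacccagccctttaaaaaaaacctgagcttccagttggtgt
Ifit3, chr19:34583369-34583528, plus strand: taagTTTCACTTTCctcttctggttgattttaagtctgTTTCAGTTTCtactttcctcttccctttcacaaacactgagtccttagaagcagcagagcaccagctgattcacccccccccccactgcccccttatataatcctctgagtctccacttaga
Igtp, chr11:58199396-58199555, plus strand: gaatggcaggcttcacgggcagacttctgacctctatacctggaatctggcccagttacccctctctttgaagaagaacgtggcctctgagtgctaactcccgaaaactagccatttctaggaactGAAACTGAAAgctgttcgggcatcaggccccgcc
Irgm1, chr11:48871421-48871580, minus strand: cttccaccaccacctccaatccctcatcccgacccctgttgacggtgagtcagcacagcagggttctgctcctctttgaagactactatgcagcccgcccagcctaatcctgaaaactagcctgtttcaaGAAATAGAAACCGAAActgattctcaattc
Gbp2, chr3:142620503-142620662, plus strand: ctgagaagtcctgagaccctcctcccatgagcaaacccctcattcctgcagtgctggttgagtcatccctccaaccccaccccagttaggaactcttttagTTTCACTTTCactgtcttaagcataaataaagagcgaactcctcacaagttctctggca
Rsad2, chr12:26456453-26456612, minus strand: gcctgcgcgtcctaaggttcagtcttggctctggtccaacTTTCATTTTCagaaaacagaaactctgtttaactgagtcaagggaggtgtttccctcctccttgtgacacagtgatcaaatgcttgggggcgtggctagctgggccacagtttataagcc
Ifit1 and Ifit3 each held 2 matches, and the 2 matches of Irgm1 overlapped in a single run. Cxcl10, Bst2, Gbp3, Ifih1, Ddx58, Ddx60, Stat2, Trim30a and Eif2ak2 also had an ISRE match in their windows. The windows of Irf7, Irf9, Oasl2 and Lgals3bp held no match to either string.

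Before the group comparisons, the arrays themselves call for description. The mean of the 40 genes on an array, each taken from its own mean over the 45 arrays, ranged from -0.51 (Ctrl 7 d mouse 54) to 1.23 (Ctrl 0 h mouse 20). Ctrl 0 h mouse 20 was the highest of its group in 37 of the 40 genes, and the other 5 mice of that group lay between -0.21 and 0.14. In the Ctrl 8 h group mice 4 and 8 stood at 0.63 and 0.71, while mice 42, 50 and 79 stood at -0.36, -0.32 and -0.14. In the CIE 8 h group mice 1, 15, 23 and 25 stood at 0.78, 0.35, 0.71 and 0.94, and mouse 51 at -0.18, the lowest of its group in 36 of the 40 genes. At 8 h each treatment therefore held high and low mice. At 0 h mouse 20 alone stood high among the Ctrl mice, and the CIE mice ranged from -0.14 to 0.68. On these genes CIE 8 h mouse 51 lay with the low Ctrl mice and Ctrl 8 h mice 4 and 8 with the high CIE mice, and all 3 were kept in the groups of their labels. The shares of all genes in which Ctrl 0 h mouse 20 was highest or CIE 8 h mouse 51 lowest were not computed. These counts therefore cannot be read as particular to the list.

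The later groups were narrower. The SD of the array means was 0.55 in Ctrl 0 h, 0.34 in CIE 0 h, 0.53 in Ctrl 8 h and 0.45 in CIE 8 h, against 0.12 in Ctrl 72 h, 0.15 in CIE 72 h, 0.11 in Ctrl 7 d and 0.14 in CIE 7 d. The Ctrl 0 h value rests on mouse 20, since the other mice of that group lay between -0.21 and 0.14. At 72 h the array means lay between -0.31 and 0.11, and at 7 d between -0.51 and 0.06. The map of single arrays shows this as dark columns among the early groups and pale or blue ones among the late groups.

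**Figure D1:**
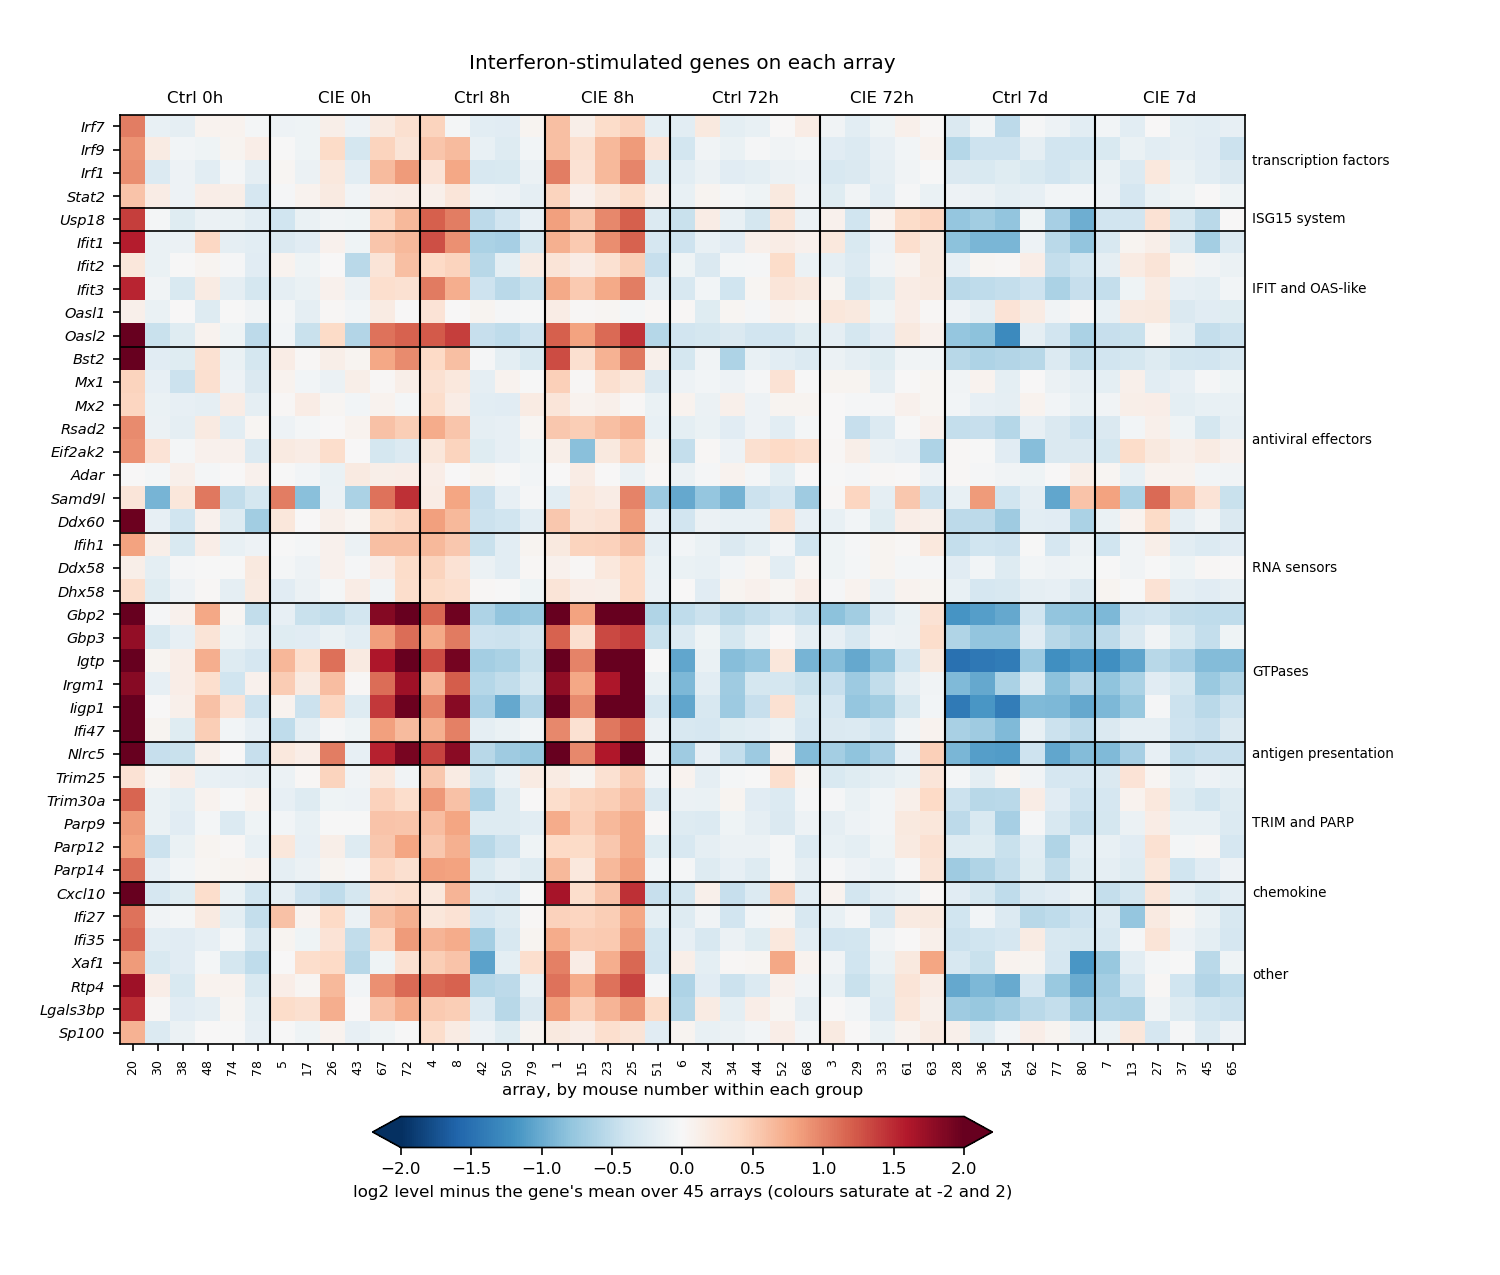
Level of each of the 40 genes (rows, grouped by role) on each of the 45 arrays (columns, by group and mouse number), as log2 level minus the gene's mean over all arrays. Ctrl 0 h mouse 20, Ctrl 8 h mice 4 and 8, CIE 0 h mice 67 and 72, and CIE 8 h mice 1, 15, 23 and 25 are red across most rows, and most of the Ctrl 7 d column block is blue.

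Facts of the whole series bear on these arrays. Medians of the arrays differed little (6.94 to 6.97 log2). Sets of arrays hybridized together are not labelled, but arrays shared exactly equal values in a way that split 44 of them into 6 sets of 6 to 8 arrays, each with no more than 1 mouse per group, and Ctrl 0 h mouse 20 fell into none. These inferred sets may not be the hybridization batches. Ctrl 0 h mouse 20 was fitted as a set of its own. Every value below with set means removed, or with sets as a block, therefore also takes out the deviation of that mouse. Markers of medium spiny neurons, the main cells of the NAC, were high throughout (7 genes, mean level 11.4 to 12.3 on single arrays). The mean of markers of cortical pyramidal neurons (Slc17a7, Neurod6 and Tbr1) ranged from 4.55 to 9.81 on single arrays, and from 4.55 to 9.11 within CIE 7 d. Whether the amount of neighbouring tissue differed between mice was not tested.

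The spread between mice was wide for most of the genes. The SD within groups, pooled over the 8 groups, had a median of 0.34 log2 over the 40 genes and of 0.13 over all 18193 genes. It was above the 90th percentile of all genes (0.23) in 31 of the 40 and above the 95th in 26. Gbp2 (0.87), Iigp1 (0.83), Igtp (0.80), Nlrc5 (0.75) and Oasl2 (0.73) varied most. Adar, an RNA-editing enzyme with a constitutive form, varied least (0.08, at the 13.9th percentile), and Oasl1 (0.14), Ddx58 (0.15), Mx2 (0.15) and Stat2 (0.16) lay between the 61.2nd and the 71.6th percentile. Without Ctrl 0 h mouse 20 the median SD was 0.30, and with means of the inferred sets removed it was 0.32.

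The genes also varied together. After removal of group means and with each gene scaled to the same variance, the first principal component held 69.3% of the variance of the 40 genes. Over all genes it held 16.4%, but such a share depends on the number of genes. Other sets of 40 genes were not scored. For the 40 genes the first component held 64.1% when set means were removed as well and 64.0% without Ctrl 0 h mouse 20. Since removal of set means also takes out that mouse, these are not independent checks.

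Irf7, the transcription factor that amplifies type I interferon output, served as the reference for this covariation. In Ctrl 0 h its lowest, median and highest levels were 6.26, 6.46 and 7.47, and in CIE 0 h 6.34, 6.46 and 6.77. In Ctrl 8 h the levels of Irf7 were 6.89, 6.40, 6.23, 6.22 and 6.49 (mice 4, 8, 42, 50 and 79), and in CIE 8 h 7.05, 6.56, 6.81, 6.91 and 6.25 (mice 1, 15, 23, 25 and 51). The groups overlapped at both times, and the mouse with the highest Irf7 in all was Ctrl 0 h mouse 20.

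Deviations of the 39 other genes from their group means were set against those of Irf7 over the 45 arrays, giving 39 relations. Pearson's r was positive for all 39, with a median of 0.76, and in 37 the adjusted p (two-sided permutation test with 100000 resamples, Benjamini-Hochberg over the 39) was at or under 0.05. Spearman's rho passed in 36, with a median of 0.68. The resamples moved deviations across groups, although the spread differed between groups, so these and the permutation p below are approximate. Without the 2 arrays farthest from the median of Irf7 (Ctrl 0 h mouse 20 and Ctrl 8 h mouse 4) 35 passed with a median r of 0.63, and with set means removed 36 passed with a median r of 0.66. Apart from the marker lists below, genes outside the list were not set against Irf7. The share of all genes that would pass is therefore not known, and these counts cannot be read as particular to the list.

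The closest relations to Irf7 crossed the roles of the genes. Oasl2, an OAS-like ubiquitin-domain protein, had r = 0.85 (rho = 0.77), Bst2, which tethers budding virions, r = 0.83 (rho = 0.73), and Rtp4, a chaperone induced by interferon, r = 0.83 (rho = 0.82). Ddx60, Rsad2, Cxcl10, Ifi47 and Usp18 followed at 0.82, 0.82, 0.82, 0.81 and 0.81. For each of these 8 genes the permutation p of r was 1e-05, the smallest that 100000 resamples can give, and the adjusted p was 1.3e-05. Adar (r = 0.01, rho = 0.04, adjusted permutation p of r 0.93) and Oasl1 (r = 0.19, rho = 0.13, adjusted permutation p of r 0.21) missed the threshold. The median r was 0.77 for the 15 genes with an ISRE match and 0.68 for the 14 others with a promoter window, and this difference was not tested.

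**Figure D2:**
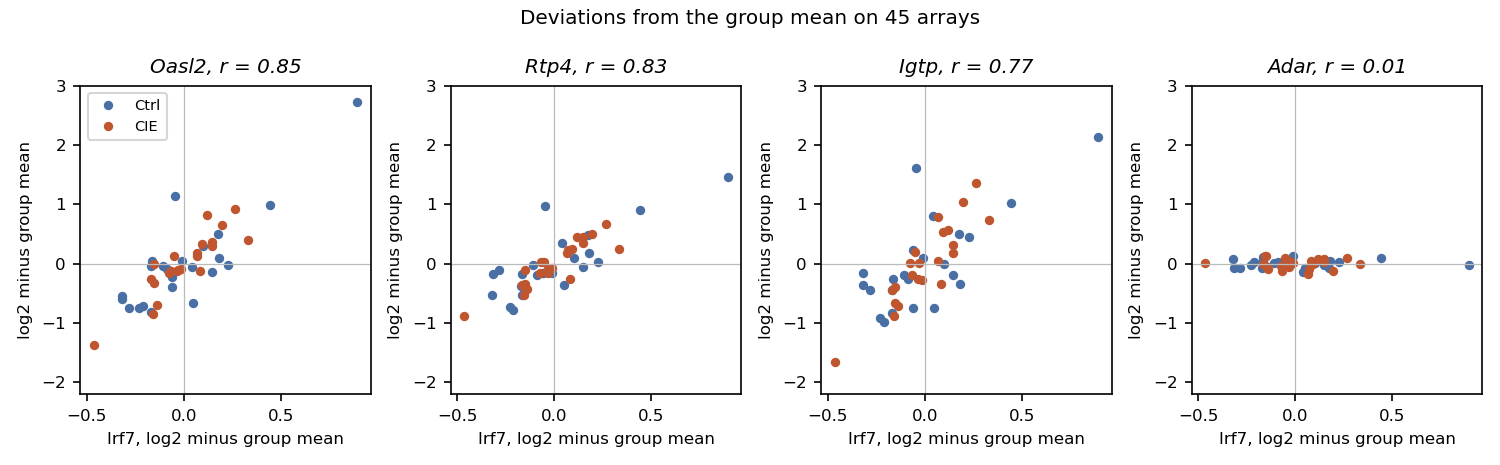
Deviation of Oasl2, Rtp4, Igtp and Adar from their group means (vertical axes, log2) against that of Irf7 (horizontal axes, log2) on the 45 arrays, blue for Ctrl and orange for CIE. Oasl2, Rtp4 and Igtp climb with Irf7 in both treatments (r = 0.85, 0.83 and 0.77), the point at the far right is Ctrl 0 h mouse 20, and Adar lies flat (r = 0.01).

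Markers of other cell types moved with Irf7 to different degrees, over 9 marker lists. For 6 T and NK cell markers r was 0.69 (rho = 0.49, adjusted permutation p of r 9e-05), and 0.49 with set means removed. For 6 astrocyte markers r was 0.50 (rho = 0.36, adjusted permutation p of r 0.0027), and 0.32 with set means removed, at an adjusted permutation p of 0.15. Gfap varied most of these 6 markers (pooled SD 0.48, with Gjb6 next at 0.21), so their mean leans on Gfap. The 2 erythroid markers (Hba-a1 and Alas2) gave -0.44 (rho = -0.37, adjusted permutation p of r 0.0090), which fell to -0.28 without the 2 arrays named above, at an adjusted permutation p of 0.17. Microglial markers (7 genes) gave 0.34 (rho = 0.31, adjusted permutation p of r 0.0502), and the other 5 lists, neurons and endothelial cells included, missed the threshold. The T and NK cell markers were low on the log2 scale (Cd3g 4.21, Gzma 4.64, Nkg7 5.71, Cd8a 6.29, Cd3e 6.56 and Cd4 8.38). Their mean was 6.29 in Ctrl 0 h mouse 20 and 5.78 to 5.89 in the other mice of that group. The part of these cells in the variation of the interferon-stimulated genes was not tested.

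The first question of the design is whether repeated ethanol vapor changed these genes at each time. No gene of the 40 reached an adjusted p of 0.01 (limma over 45037 probesets, Benjamini-Hochberg) at 0 h, 8 h, 72 h or 7 d, against 1.93%, 0.0824%, 0% and 0% of all genes. The smallest adjusted p of the 40 was 0.449, 0.211, 0.682 and 1.00 at these times. At an unadjusted p under 0.05, limma gave 0 of the 40 genes as higher in CIE at 0 h (all genes 11.6%), 14 at 8 h (35.0%; all genes 4.46%), 1 at 72 h (all genes 3.69%) and 0 at 7 d (all genes 0.863%), and 0 as lower at any time. Differences were above 0 in 24, 37, 28 and 35 of the 40 genes at the 4 times, against 56.9%, 51.7%, 67.6% and 48.2% of all genes. Their median was 0.052, 0.374, 0.069 and 0.187 log2, against 0.017, 0.0035, 0.032 and -0.0026 over all genes.

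**Figure D3:**
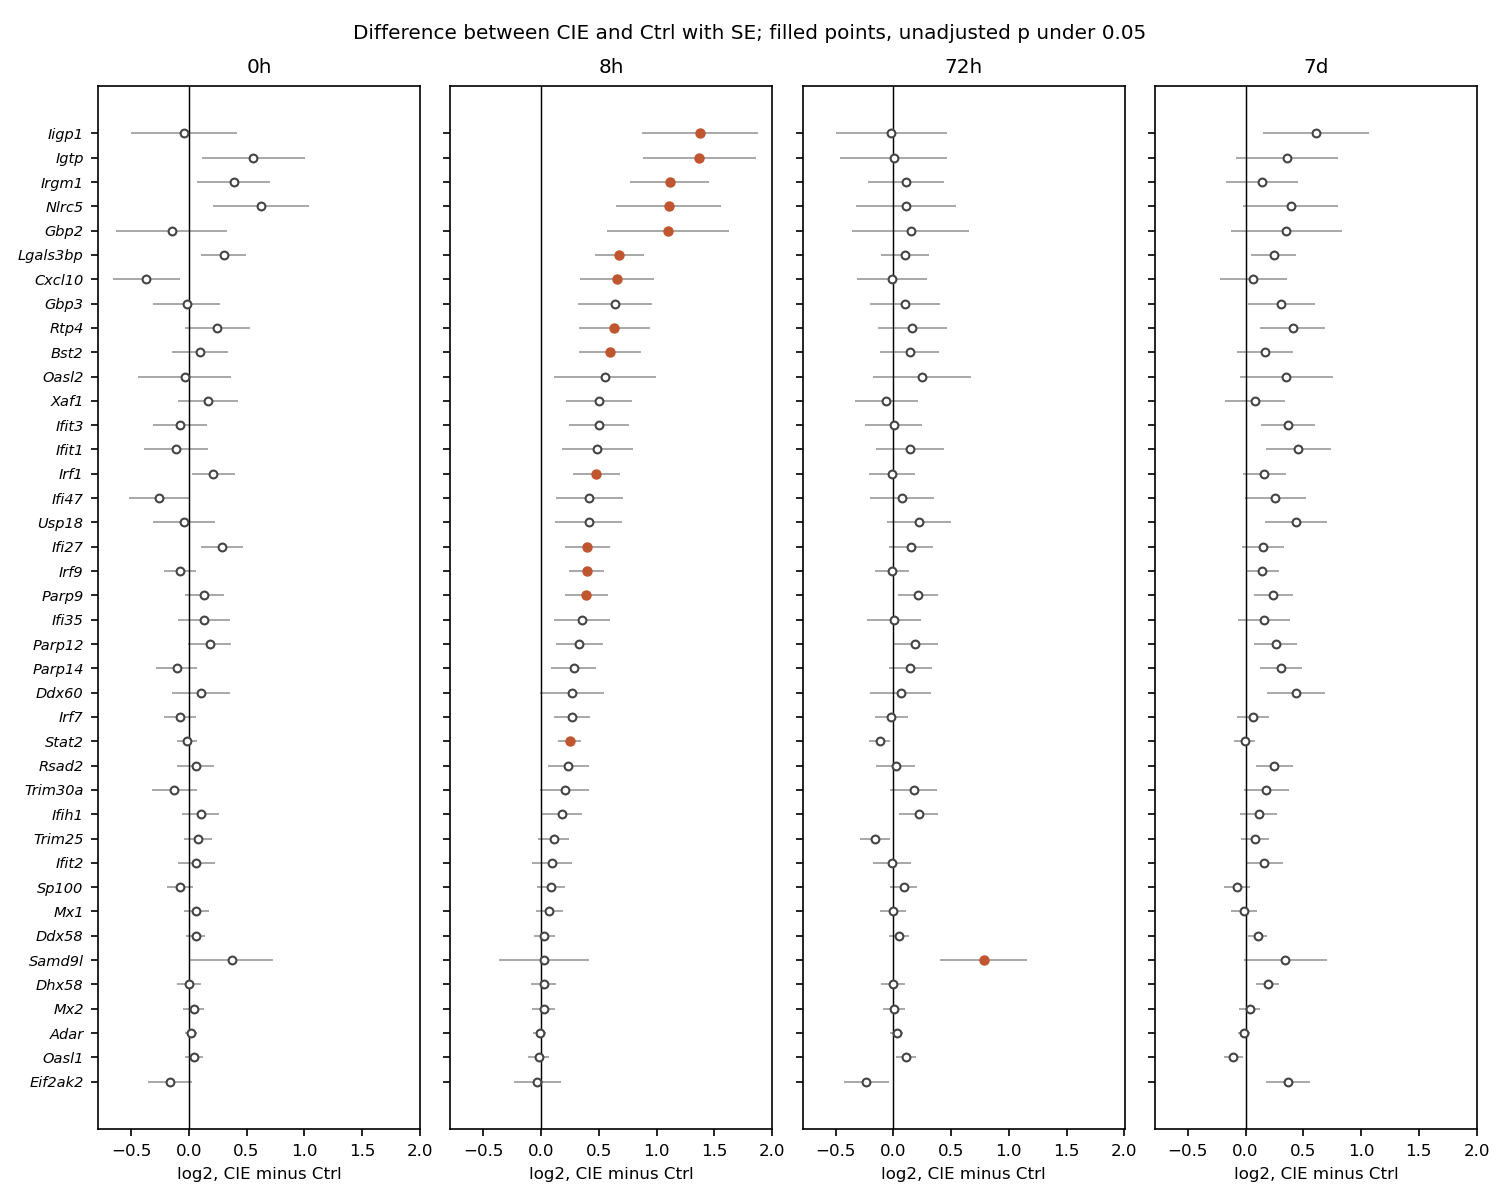
Difference between CIE and Ctrl (log2, points) with its SE (bars) for the 40 genes at 0 h, 8 h, 72 h and 7 d, in the order of the 8 h values. Filled points mark an unadjusted p under 0.05, which 14 genes reached at 8 h and Samd9l alone at 72 h, and at no time did a gene reach an adjusted p of 0.01.

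The genes with the smallest p at 8 h were Irgm1, Lgals3bp, Igtp, Iigp1 and Irf9. Igtp, an immunity-related GTPase, measured 9.99, 10.59, 7.99, 8.05 and 8.23 in Ctrl mice 4, 8, 42, 50 and 79. In CIE mice 1, 15, 23, 25 and 51 Igtp measured 11.08, 9.67, 10.88, 11.39 and 8.68. The groups overlapped, since Ctrl mice 4 and 8 were both above CIE mice 15 and 51. The difference of Igtp was 1.37 ± 0.49 (SE; 2.58-fold, adjusted p = 0.36).

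Irgm1, a GTPase of the same family that regulates autophagy, had the smallest p of the 40 genes at 8 h. It measured 9.37, 9.89, 8.11, 8.18 and 8.34 in Ctrl mice and 10.45, 9.46, 10.30, 10.69 and 8.55 in CIE mice, in the same order of mouse numbers. Mice 1, 23 and 25 of the CIE group were above all Ctrl mice, and CIE mice 15 and 51 lay within the Ctrl range. The difference of Irgm1 was 1.11 ± 0.34 (SE; 2.16-fold, adjusted p = 0.21).

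Lgals3bp, a secreted galectin-binding glycoprotein, measured 8.66, 8.62, 7.85, 7.57 and 7.85 in Ctrl 8 h mice and 8.98, 8.62, 8.82, 9.02 and 8.52 in CIE 8 h mice. Only CIE mice 15 and 51 lay within the Ctrl range. The difference of Lgals3bp was 0.68 ± 0.21 (SE; adjusted p = 0.23). Iigp1, another GTPase, differed by 1.38 ± 0.50 (SE; adjusted p = 0.38) and Irf9, the DNA-binding subunit of the type I interferon complex, by 0.39 ± 0.15 (SE; adjusted p = 0.45).

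Gbp2, a guanylate-binding protein, had high and low mice in both treatments at 8 h. The Ctrl values of Gbp2 were 8.89, 9.69, 7.13, 6.95 and 7.00, and the CIE values 9.78, 8.54, 9.83, 9.85 and 7.14. Its difference of 1.10 ± 0.53 (SE) had an adjusted p of 0.65. Gbp3 differed by 0.64 ± 0.32 (SE; adjusted p = 0.68), and Nlrc5, the transactivator of MHC class I genes, by 1.10 ± 0.45 (SE; adjusted p = 0.49).

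Classical type I interferon targets come next. Ifit3, which binds foreign RNA with Ifit1, measured 9.73, 9.42, 8.27, 8.15 and 8.24 in Ctrl mice and 9.45, 9.21, 9.44, 9.72 and 8.51 in CIE mice, so that the groups shared nearly the same upper range. The difference was 0.50 ± 0.26 (SE; adjusted p = 0.69) for Ifit3, 0.49 ± 0.31 (SE; adjusted p = 0.80) for Ifit1 and 0.56 ± 0.44 (SE; adjusted p = 0.89) for Oasl2. Usp18, the protease that removes ISG15 from proteins and dampens the receptor, differed by 0.41 (adjusted p = 0.85), Rsad2 by 0.24 and Bst2 by 0.60. Mx1, a dynamin-like GTPase that is defective in many laboratory strains, differed by 0.07 at a level of 4.50, near the bottom of the scale.

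For the transcription factors the difference at 8 h was 0.48 for Irf1, 0.27 for Irf7 and 0.25 for Stat2, with adjusted p of 0.55, 0.75 and 0.46. For the RNA sensors it was 0.18 for Ifih1, 0.03 for Ddx58 and 0.02 for Dhx58. Cxcl10, which attracts T cells, measured 5.64, 6.11, 5.15, 5.10 and 5.41 in Ctrl and 7.08, 5.77, 5.99, 6.89 and 4.96 in CIE mice. CIE mouse 51 was thus the lowest of the 10 mice and mice 1 and 25 the highest, and the difference of Cxcl10 was 0.66 ± 0.32 (SE; adjusted p = 0.66).

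In none of the 40 genes were all CIE mice above all Ctrl mice at 8 h (1.04% of all genes). CIE mouse 51 lay below the median of the Ctrl group in 22 of the 40, a count whose share over all genes was not computed. With that mouse left out, 26 of the 40 genes had an unadjusted limma p under 0.05 and were higher in CIE (all genes 4.11%) and 0 had an adjusted p of 0.01 or less, the smallest being 0.0512. In the same fit over all groups, in which 14 genes did so with every mouse kept, leaving out Ctrl mouse 4 or 8 gave 23 such genes, CIE mouse 15 gave 13, CIE mouse 23 gave 10, and Ctrl mouse 42, 50 or 79 or CIE mouse 1 or 25 gave 5, again with 0 at an adjusted p of 0.01. With the fit limited to the 10 arrays of that time, 5 of the 40 genes had an unadjusted p under 0.05 and were higher in CIE (all genes 4.4%).

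**Figure D4:**
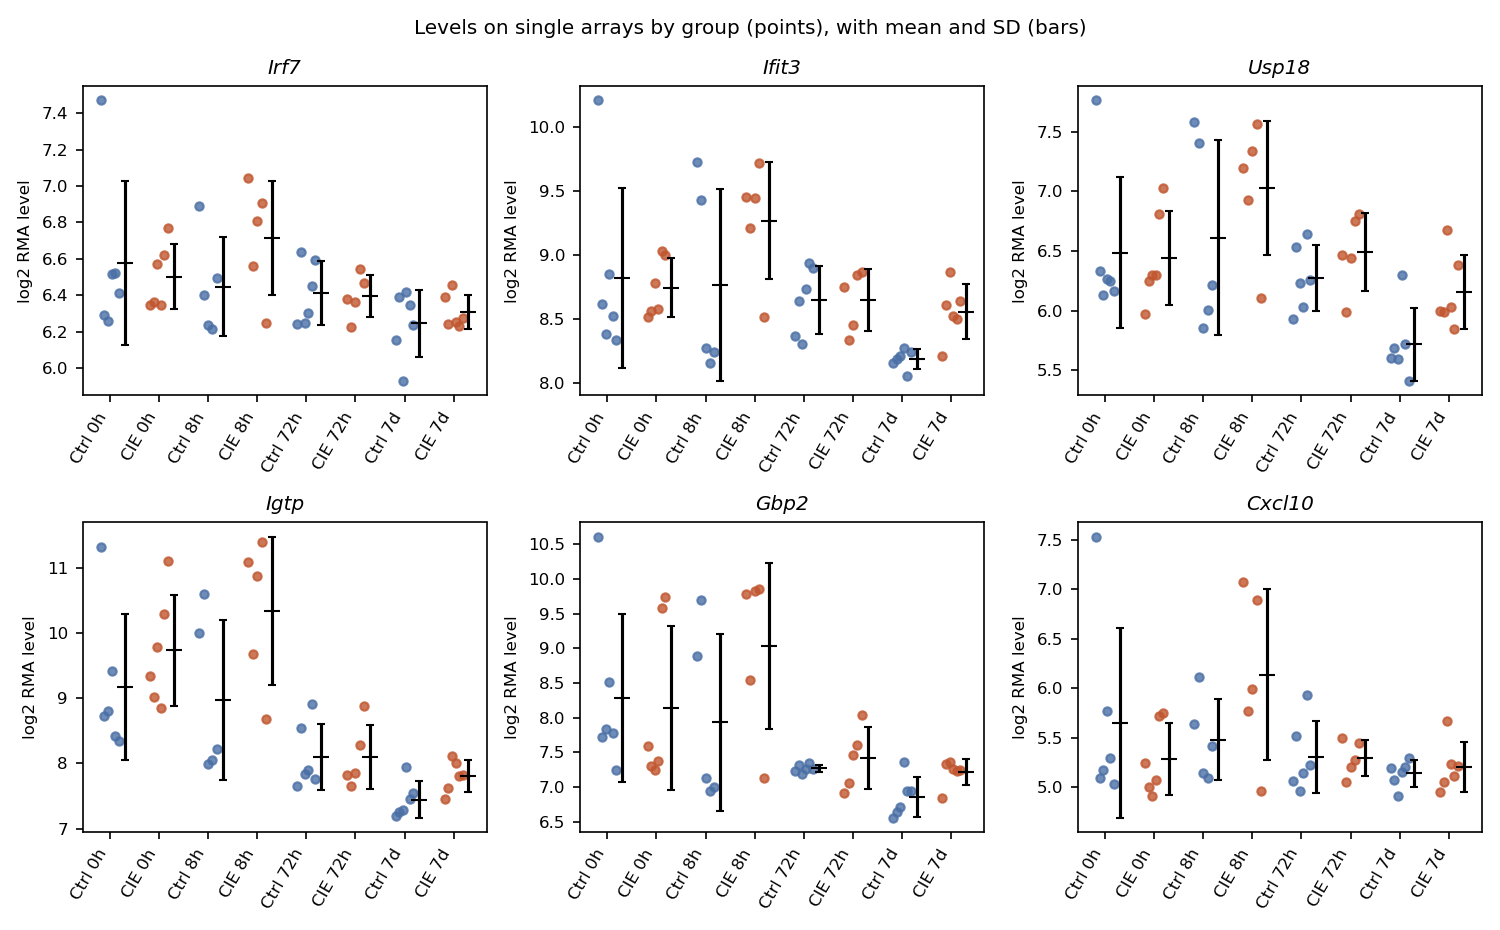
Log2 levels of Irf7, Ifit3, Usp18, Igtp, Gbp2 and Cxcl10 on single arrays (points) in the 8 groups, blue for Ctrl and orange for CIE, with the group mean and SD (bars). At 8 h the Ctrl points of Ifit3, Usp18, Igtp and Gbp2 fall into 2 high and 3 low mice, CIE mouse 51 is the lowest CIE point, and the single high Ctrl 0 h point is mouse 20.

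Arrays of the same inferred set did not all show the 8 h difference. The median difference of the 40 genes between the CIE and the Ctrl mouse of a set was 0.90 (mice 23 and 42) and 1.17 (mice 25 and 50) in 2 sets, each with 38 of 40 genes above 0. In the other 3 sets it was -0.03 (mice 1 and 4), -0.32 (mice 15 and 8) and -0.06 (mice 51 and 79). With the inferred set as a block 17 of the 40 genes (42.5%; all genes 3.9%) had an unadjusted p under 0.05 and were higher in CIE at 8 h, and 0 had an adjusted p of 0.01 or less.

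**Figure D5:**
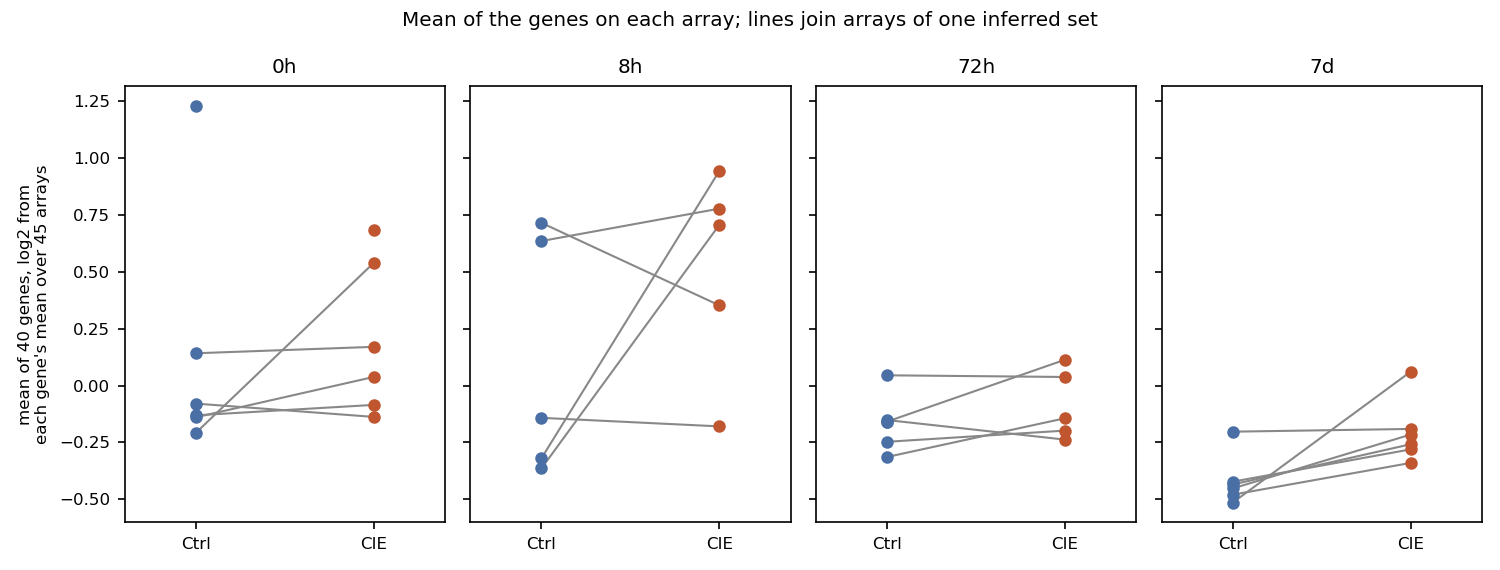
Mean of the 40 genes on each array (vertical axis, log2 from each gene's mean over 45 arrays) for Ctrl (blue) and CIE (orange) mice at each time, with lines joining arrays of the same inferred set. At 8 h 2 of the 5 lines rise steeply and the other 3 rise slightly, run level or fall, and at 7 d all 6 lines rise or run level within a narrower range.

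At 0 h the values depended on Ctrl mouse 20. Cxcl10 had lowest, median and highest levels of 5.03, 5.23 and 7.53 in Ctrl and 4.91, 5.15 and 5.75 in CIE mice, and for Igtp these were 8.35, 8.77 and 11.31 in Ctrl and 8.85, 9.56 and 11.09 in CIE mice. The groups overlapped in both genes. The difference of Cxcl10 was -0.37 ± 0.29 (SE; adjusted p = 0.58) with mouse 20 and 0.01 without it, and that of Igtp 0.56 ± 0.45 (SE; adjusted p = 0.59) with it and 0.99 without it. Ifi27, a mitochondrial protein, had the smallest p at 0 h with a difference of 0.29 ± 0.18 (SE; adjusted p = 0.45), and Lgals3bp and Nlrc5 differed by 0.30 and 0.63. Without mouse 20 the median difference of the 40 genes was 0.22, and 9 genes had an unadjusted p under 0.05 and were higher in CIE (22.5%; all genes 11.6%). The smallest adjusted p was then 0.0274, of Lgals3bp, whose difference was 0.57. Within sets the median difference at 0 h was 0.08, 0.06, 0.04, -0.08 and 0.69, the last in the pair of CIE mouse 67 and Ctrl mouse 78. The mean of the 7 microglial markers was lower in every CIE mouse at 0 h (8.95 to 9.30) than in any Ctrl mouse (9.38 to 9.71). All CIE mice lay below all Ctrl mice at 0 h in 0.561% of all genes. The markers differed unevenly: Fcrls by -1.21, Cx3cr1 by -0.58, P2ry12 by -0.48, Siglech by -0.27, Aif1 by -0.18, Tmem119 by -0.16 and Csf1r by -0.003. The astrocyte markers of Ctrl mouse 20 averaged 10.62, with the next mouse of its group at 10.35. Its oligodendrocyte and erythroid markers averaged 11.73 and 5.15, the lowest of that group. The part of these lists in the 0 h values was not tested.

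At 72 h the gene with the smallest p was Samd9l, which restricts viral replication. Its Ctrl levels ran from 7.26 to 7.95 with a median of 7.54, and the CIE levels were 8.31, 8.72, 8.10, 8.83 and 7.86 (mice 3, 29, 33, 61 and 63), so that CIE mouse 63 alone lay within the Ctrl range. The difference of Samd9l was 0.78 ± 0.38 (SE; adjusted p = 0.68). Among the 10 genes with the widest spread Samd9l had the lowest r against Irf7, 0.33. Oasl1, Ifih1, Stat2 and Trim25 came next by p at 72 h, with differences of 0.11, 0.22, -0.12 and -0.16 and adjusted p of 0.79, 0.79, 0.80 and 0.80.

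At 7 d 35 of the 40 differences were above 0 and none was over 0.61. Eif2ak2, the kinase PKR, had lowest, median and highest levels of 5.74, 6.34 and 6.61 in Ctrl and 6.24, 6.73 and 6.95 in CIE mice, overlapping. Its difference was 0.37 ± 0.19 (SE; adjusted p = 1.00). For Eif2ak2 the mean of all 3 probesets differed by 0.17. Dhx58, Ddx60, Parp14 and Usp18 followed with 0.19, 0.44, 0.31 and 0.44, and Iigp1 had a difference of 0.61. For Ifit3 the Ctrl mice had lowest, median and highest levels of 8.06, 8.20 and 8.27 and the CIE mice 8.21, 8.56 and 8.86, and 1 CIE mouse fell within the Ctrl range.

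The 7 d values depend on which arrays set the spread. With the fit limited to the 12 arrays of 7 d, 21 of the 40 genes (52.5%) had an unadjusted p under 0.05 and were higher in CIE, against 0.995% of all genes, and 0 had an adjusted p of 0.01 or less. Within the 6 inferred sets the median difference of the 40 genes at 7 d was 0.12, 0.34, 0.61, -0.06, 0.11 and 0.17. At 72 h it was 0.13, -0.05, 0.02, 0.05 and 0.25 within 5 sets.

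Whether the ethanol difference itself changed with time was tested as a difference of differences from that at 0 h. No gene of the 40 reached an adjusted p of 0.01 in limma for 8 h, 72 h or 7 d (all genes 0%, 0.0824% and 0.231%), and 3 (7.5%), 0 and 0 had an unadjusted p under 0.05, against 6.6%, 8.88% and 11% of all genes, so that none of these counts stood far above the share of all genes.

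The second question is how the genes moved with time within each treatment. In the CIE mice 5 of the 40 genes (12.5%) passed an adjusted p of 0.01 in an F test over the 4 times, against 3.07% of all genes. They were Igtp (adjusted p = 3.3e-04), Irgm1 (5.0e-04), Lgals3bp (0.0017), Irf9 (0.0020) and Nlrc5 (0.0086). At 0.05 the count was 9, with Iigp1, Rtp4, Stat2 and Bst2 added (22.5%; all genes 6.22%), and at an unadjusted p under 0.05 it was 22 (55.0%; all genes 19.4%). In the Ctrl mice no gene passed an adjusted p of 0.01 (all genes 0.313%) while 19 had an unadjusted limma p under 0.05 (47.5%; all genes 7.61%).

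The 5 genes that changed with time in CIE mice were highest at 8 h and lowest at 7 d. Mean levels of Igtp in CIE mice were 9.73 ± 0.85, 10.34 ± 1.14, 8.10 ± 0.49 and 7.81 ± 0.24 (SD) at 0 h, 8 h, 72 h and 7 d, and in Ctrl mice 9.17 ± 1.12, 8.97 ± 1.23, 8.10 ± 0.51 and 7.45 ± 0.28 (SD). For Igtp the CIE 7 d mice, 7.46 to 8.12, were all below the CIE 8 h mice, 8.68 to 11.39. Irf9 had means of 7.77, 8.20, 7.53 and 7.41 in CIE and of 7.84, 7.80, 7.54 and 7.27 in Ctrl mice, and its CIE 7 d range (7.24 to 7.53) lay below its CIE 8 h range (7.93 to 8.51). Between 8 h and 7 d in CIE mice, 4 of the 40 genes were called lower (all genes 0.759%): Igtp fell by 2.53 ± 0.47, Irgm1 by 1.77 ± 0.33, Lgals3bp by 1.06 ± 0.20 and Irf9 by 0.79 ± 0.15 (log2 ± SE), with adjusted p of 9.3e-04, 0.0011, 0.0018 and 0.0012 in limma. Between 0 h and 7 d Igtp and Lgals3bp were called lower (all genes 1.14%), and they fell by 1.92 ± 0.45 and 0.86 ± 0.20. In the other 4 pairs of times within CIE mice the count was 0. The F test and these pairs used 1 spread pooled over all 8 groups. The SD of Igtp in CIE mice was 1.14 at 8 h and 0.24 at 7 d, so these SE and p are approximate. No fit with a separate spread for each group was run. Leaving out 1 CIE array at a time moved the count of genes called with time between 3 (without CIE 8 h mouse 25) and 8 (without CIE 8 h mouse 51), and Nlrc5 lost its call in 18 of 22 such fits and Irf9 in 1. Markers of other cells moved over the same times: in CIE mice the astrocyte markers averaged 10.33 to 10.69 at 8 h and 10.12 to 10.31 at 7 d, and the microglial markers 8.95 to 9.30 at 0 h and 9.47 to 9.68 at 7 d, neither pair overlapping. These are list means, that of the astrocyte markers leaning on Gfap, and the share of all genes with such a gap was not computed. The part of these markers in the change with time was not tested. No test compared the time course of CIE mice with that of Ctrl mice beyond the differences of differences above.

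In both treatments the genes stood lowest late. The group mean was lower at 7 d than at 0 h in 39 of the 40 genes in Ctrl and in 39 in CIE mice, the lowest of the 8 group means was that of Ctrl 7 d in 34 genes, and the highest was that of CIE 8 h in 36. Means of the 40 genes were 0.14, 0.10, -0.16 and -0.42 in Ctrl and 0.20, 0.52, -0.09 and -0.20 in CIE mice at 0 h, 8 h, 72 h and 7 d. These are descriptions over genes that vary together, not independent counts. The shares of all genes for these counts were not computed. Mouse 20 raised the Ctrl 0 h mean: the group medians of the array means were -0.10 in Ctrl 0 h and -0.44 in Ctrl 7 d.

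Genes upstream of the list were read in the same fit. Of 42 other genes of the interferon pathway that were measured, none passed an adjusted p of 0.01 between CIE and Ctrl at any time in limma, and 6, 3, 1 and 0 of the 42 had an unadjusted p under 0.05 at 0 h, 8 h, 72 h and 7 d, against 18.4%, 8.04%, 4.56% and 1.97% of all genes in either direction, which is no excess. The 9 ligand genes, Ifnb1 and Ifng among them, had mean levels of 3.62 to 5.76 and the 6 receptor genes 5.76 to 9.22. Ifnar2, a subunit of the type I receptor, was 0.22 higher at 0 h and 0.25 higher at 8 h at a level of 9.22. Its adjusted p in limma was 0.019 at 0 h and 0.075 at 8 h, above the threshold of 0.01. Tlr7, an endosomal sensor of single-stranded RNA, was the only one called with time in CIE mice (adjusted p = 0.0068, where 3.07% of all genes were called). Its difference was 0.38 at 0 h (adjusted p = 0.034 in limma) and 0.34 at 8 h (adjusted p = 0.34). Over these genes 3 of 42 had an SD above the 90th percentile of all genes. Their median differences were 0.02, 0.02, 0.02 and -0.02 at the 4 times.

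MHC class I genes, which Nlrc5 switches on, were read on the same arrays as a list of 8. Their mean, taken as for the 40 genes, was 1.60 in Ctrl 0 h mouse 20, 0.29 and 0.68 in Ctrl 8 h mice 4 and 8, and -0.56, -0.46 and -0.36 in Ctrl 8 h mice 42, 50 and 79. In CIE 8 h mice 1, 15, 23, 25 and 51 it was 1.36, 0.65, 0.96, 1.32 and 0.05. H2-K1 and H2-D1 differed by 1.44 and 1.53 at 8 h, with adjusted p of 0.053 and 0.037, and in Ctrl 0 h mouse 20 they stood 2.04 and 1.90 above their group means. None of the 8 genes reached an adjusted p of 0.01. For B2m, Tap1, Tap2, Psmb8, Psmb9 and Psmb10 the adjusted p at 8 h was 0.090, 0.31, 0.28, 0.34, 0.31 and 0.81.

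Other cell markers were read at 8 h as well. The erythroid markers averaged 5.66 to 5.83 in Ctrl and 5.27 to 5.50 in CIE mice, with no overlap. That list held only Alas2, which differed by -0.69 at a level of 6.32, and Hba-a1, which differed by -0.01 at a level of 4.91. All CIE mice lay below all Ctrl mice at 8 h in 1.06% of all genes. The ranges overlapped for T and NK cell markers (5.76 to 5.99 in Ctrl and 5.94 to 6.26 in CIE mice), astrocyte markers (10.16 to 10.55 and 10.33 to 10.69) and microglial markers (9.48 to 9.60 and 9.13 to 9.63). The astrocyte markers differed unevenly at 8 h: Gjb6 by 0.47, Gfap by 0.44, Aldh1l1 by 0.21, Slc1a3 by 0.03, Gja1 by 0.02 and Aqp4 by -0.006. The part of these cells in the 8 h values was not tested.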

How the data were processed

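Total RNA of the NAC of 45 single mice was hybridized to Affymetrix mouse arrays. The deposited values are log2 expression values of 45037 probesets, which the authors made by RMA with quantile normalization within each hybridization batch, quantile normalization over all arrays and ComBat. ComBat can move values between batches, and batches are not labelled. Sets of arrays were therefore inferred from exactly equal values (tolerance 2e-08, at least 5 per pair). The number of arrays limits the precision. No value was transformed here.

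Groups came from the labels. The genes and the lists were chosen with earlier results of these data known. A model with 1 mean per group was fitted to all probesets (limma 3.58.1, R 4.3.3, empirical Bayes), with p-values adjusted by Benjamini-Hochberg over all probesets and the threshold of the methods (0.01), and read at the brightest probeset of each gene. Alternatives were another quantile normalization, median centring, a filter on dim probesets, trended and robust empirical Bayes, sets as a block, array weights, adjustment over brightest probesets, arrays of 1 time only, the mean of all probesets of a gene, a threshold of 0.05, and leaving out each array. Correlations used deviations from group means. Genes named were those called in any contrast or F test, the 5 with the smallest p in each CIE and Ctrl contrast, the 10 with the largest SD, and a list by role (Irf7, Irf9, Irf1, Stat2, Isg15, Usp18, Ifit1, Ifit3, Oasl2, Bst2, Mx1, Rsad2, Ifih1, Ddx58, Dhx58, Cxcl10, Gbp3, Igtp and Irgm1); others named as an example or an extreme were chosen after their values were seen. The fit and the correlations were tested on simulated data. Gene positions and promoter windows came from RefSeq tables (GRCm38.p6), in which all 40 genes were found by symbol or gene ID.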

Additional observations from a re-analysis of the deposited data

Results flagged for a closer look

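Single mice far from the rest of their group were looked for in the 30 named genes and 8 groups (240 tests by Dixon's ratio, of which chance alone flags about 1 in 20). Of 32 flags, 19 were the high values of Ctrl 0 h mouse 20, and in all 19 genes this mouse was above the other 5 of its group. Its levels were 9.12 for Bst2, 7.53 for Cxcl10, 6.75 for Ddx60 and 10.08 for Gbp3. They were 8.36 for Ifit1, 10.21 for Ifit3, 11.31 for Igtp, 10.51 for Iigp1, 9.26 for Irf1 and 7.47 for Irf7. They were 8.56 for Irf9, 10.49 for Irgm1, 9.61 for Lgals3bp, 8.52 for Nlrc5 and 9.04 for Oasl2. They were 7.35 for Parp14, 8.89 for Rsad2, 10.05 for Rtp4 and 7.77 for Usp18. The mean of the 40 genes stood apart there too (1.23, with the next mouse at 0.14). The genes vary together, and some of the 30 were named for a large SD, which this mouse helped to set. The flags are therefore not independent of each other, and the rate of 1 in 20 is no measure of their number.

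The other 13 flags were spread over mice. In Ctrl 7 d, mouse 62 was high in Nlrc5 (5.96) and Usp18 (6.30) and low in Eif2ak2 (5.74), mouse 77 was high in Bst2 (6.73), and the mean of the 40 genes was high in mouse 62 (-0.20). In CIE 7 d, mouse 7 was low in Gbp2 (6.85), mouse 27 was high in Irf1 (8.53), and the mean of the 40 genes was high in mouse 27 (0.061). In Ctrl 72 h, mouse 24 was low in Dhx58 (5.44) and Oasl1 (5.77), mouse 6 was low in Irf9 (7.29) and mouse 52 was high in Mx1 (4.78). In CIE 72 h mouse 33 was low in Mx1 (4.33), in Ctrl 8 h mouse 4 was high in Oasl1 (6.28), and in CIE 8 h mouse 51 was low in Rsad2 (7.79).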

How the results depend on the processing

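The count of 0 genes between CIE and Ctrl at 0 h, 8 h, 72 h and 7 d, for the 3 differences of differences and for time in Ctrl held under every alternative run, a threshold of 0.05 included. Leaving out 1 array at a time gave median differences of -0.0037 to 0.22 at 0 h, 0.23 to 0.51 at 8 h, 0.01 to 0.13 at 72 h and 0.14 to 0.25 at 7 d. Smallest adjusted p over the alternatives reached 0.0274 at 0 h without Ctrl mouse 20 and 0.0440 at 8 h with array weights. The difference of Cxcl10 at 0 h reversed, to 0.026 with inferred sets as a block and, when 1 array was left out, ranged from -0.491 (without Ctrl mouse 78) to 0.00892 (without Ctrl mouse 20). The count of 5 genes with time in CIE mice became 8 with sets as a block, 11 with array weights and 9 at a threshold of 0.05, and ranged from 3 (without CIE 8 h mouse 25) to 8 (without CIE 8 h mouse 51) when 1 array was left out; these leave-one-out fits, and Ifit3 as a reference in place of Irf7 (38 genes), were chosen after seeing the data. Nlrc5 lost its call in 18 of those 22 fits and Irf9 in 1. The cause was not tested. With Irf7 36 genes passed without Ctrl 0 h mouse 20, and the median SD ranged from 0.30 to 0.35. Values with sets as a block are not independent of leaving out Ctrl 0 h mouse 20, which formed a set of its own. Isg15 as a reference was not run, since it has no probeset of its symbol alone. No paired analysis was possible because mouse numbers are not shared between groups; the inferred sets, which the labels do not give, served as a block instead.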
